A study of Homo sapiens with 8 samples.

Results

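The circadian clock and DEC repressor genes described here are BHLHE40, BHLHE41, PER1, PER2, PER3, CRY1, CRY2, NR1D1, NR1D2 and DBP. They were taken by symbol from an expression table of 60332 genes, and all 10 were found once. The RNA came from the Ewing sarcoma line SK-N-MC, an established culture, as 8 libraries that form 4 groups of 2. Every group carried dCas9-KRAB, a dead Cas9 fused to a transcriptional repressor domain, from a lentivirus, after puromycin selection. Control cells received the empty dCas9-KRAB virus and were kept in normoxia or in hypoxia, which was 16 h at 1% oxygen. The text of the study calls the controls of this experiment parental cells. eKD1 and eKD2 cells carried a guide each, next to the GGAA repeat enhancer upstream of LOXHD1, and their 4 libraries are all from hypoxia. An oxygen effect within the eKD cells was therefore not measurable here. The cells were pooled transductants and not single clones. The label on treatment names eKD1 alone, and the eKD2 libraries were placed by their titles.

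The core clock is a feedback loop of transcription. CLOCK and BMAL1 (ARNTL in the table) bind E-box sequences and drive the PER and CRY genes, whose proteins return to block CLOCK and BMAL1, while the nuclear receptors NR1D1 and NR1D2 (REV-ERB alpha and beta) repress ARNTL and the PAR-bZIP factor DBP acts on D-box sequences. BHLHE40 and BHLHE41 (DEC1 and DEC2) are basic helix-loop-helix repressors that compete at E-boxes, and BHLHE40 is a known target of the hypoxia-inducible factors. Each library was 1 harvest at 1 time and the sources used here give no step that synchronised the cells, so a change in level and a change in the phase of a rhythm cannot be told apart.

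The promoters of 5 genes are shown. BHLHE40, CRY2 and PER3 were called across oxygen and BHLHE41 in eKD2, and NR1D2, which was not called, is shown as the member that lay on opposite sides of control hypoxia in eKD1 and eKD2. The sequences are from RefSeq (GRCh38.p14), and each window was found exactly once in GRCh37, the build of the expression table. Each runs 5′ to 3′ on the strand of the gene, from 250 bases before to 50 bases after a RefSeq transcript start. GRCh37 positions are chr3:5020872-5021171 on the plus strand for BHLHE40, chr12:26277921-26278220 on the minus strand for BHLHE41, chr11:45868776-45869075 on the plus strand for the CRY2 window 2, chr1:7844101-7844400 on the plus strand for the PER3 window 1, and chr3:23987362-23987661 on the plus strand for the NR1D2 window 2. Capitals mark matches, on either strand, to the motifs named in the next paragraph.
BHLHE40: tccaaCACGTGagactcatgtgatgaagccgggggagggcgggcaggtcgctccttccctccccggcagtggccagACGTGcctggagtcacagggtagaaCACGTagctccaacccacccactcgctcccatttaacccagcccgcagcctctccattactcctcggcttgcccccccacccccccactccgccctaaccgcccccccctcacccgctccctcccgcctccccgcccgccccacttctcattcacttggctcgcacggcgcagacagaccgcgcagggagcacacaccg
BHLHE41: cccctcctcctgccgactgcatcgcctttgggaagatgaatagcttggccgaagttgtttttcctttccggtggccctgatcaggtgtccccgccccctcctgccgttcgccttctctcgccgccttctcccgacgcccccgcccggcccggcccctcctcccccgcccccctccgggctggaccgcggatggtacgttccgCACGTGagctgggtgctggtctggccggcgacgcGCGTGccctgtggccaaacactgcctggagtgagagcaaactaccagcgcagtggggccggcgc
CRY2: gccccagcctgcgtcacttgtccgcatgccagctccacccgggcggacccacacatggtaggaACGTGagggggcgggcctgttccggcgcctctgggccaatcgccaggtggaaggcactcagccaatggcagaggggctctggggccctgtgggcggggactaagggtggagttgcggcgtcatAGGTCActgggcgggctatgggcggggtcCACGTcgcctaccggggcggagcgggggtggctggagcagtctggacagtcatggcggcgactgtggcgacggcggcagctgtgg
PER3: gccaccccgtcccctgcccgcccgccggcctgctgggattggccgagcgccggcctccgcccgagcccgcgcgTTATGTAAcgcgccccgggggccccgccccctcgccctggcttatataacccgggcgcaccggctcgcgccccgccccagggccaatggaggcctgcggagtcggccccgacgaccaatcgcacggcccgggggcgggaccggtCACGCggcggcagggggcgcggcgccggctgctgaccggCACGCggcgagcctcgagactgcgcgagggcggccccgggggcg
NR1D2: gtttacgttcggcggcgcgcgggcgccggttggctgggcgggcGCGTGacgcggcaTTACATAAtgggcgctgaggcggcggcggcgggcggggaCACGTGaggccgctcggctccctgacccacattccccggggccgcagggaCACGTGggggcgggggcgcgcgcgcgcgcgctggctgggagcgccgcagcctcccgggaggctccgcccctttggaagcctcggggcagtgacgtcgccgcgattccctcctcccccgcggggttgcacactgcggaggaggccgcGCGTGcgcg

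Motifs were searched by their letters on both strands. They were the E-box CACGTG, the hypoxia response core ACGTG or GCGTG, the D-box TTATGCAA or TTATGTAA, and the ROR element AGGTCA, which the REV-ERB receptors also bind. Each CACGTG holds ACGTG on both strands, so an E-box always counts as a hypoxia response core too. The E-box was in the windows of 4 of the 10 genes (BHLHE40, BHLHE41, PER1 and NR1D2) and in 7.26% of the 35116 windows of the table. BHLHE40 had its E-box at bases -245 to -240 from the start and 2 further cores, and BHLHE41 had its E-box at -48 to -43. NR1D2 window 2 held E-boxes at -155 to -150 and at -105 to -100. NR1D2 window 1, which is not printed, held none of these motifs, and PER3 window 2, also not printed, held the hypoxia response core alone. A hypoxia response core was in at least 1 window of all 10 genes, against 48.4% of all windows, so this match did not separate the genes that differed with oxygen from those that did not. D-box letters were found for PER1, PER3 and NR1D2 (1.71% of all windows) and the ROR element for PER1 and CRY2 (13.8%). CRY2, PER3 and NR1D2 have 2 windows each, so their chance of a match is larger than that of a single window. A match describes letters in a window and says nothing of binding. The genes whose promoters are not printed lie, in GENCODE on GRCh37, at chr17:8043790-8059824 (PER1), chr2:239152685-239198743 (PER2), chr12:107385142-107487327 (CRY1), chr17:38249046-38256842 (NR1D1) and chr19:49133287-49140636 (DBP), all on the minus strand, and every value is for the whole gene over its exons.

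**Figure D1:**
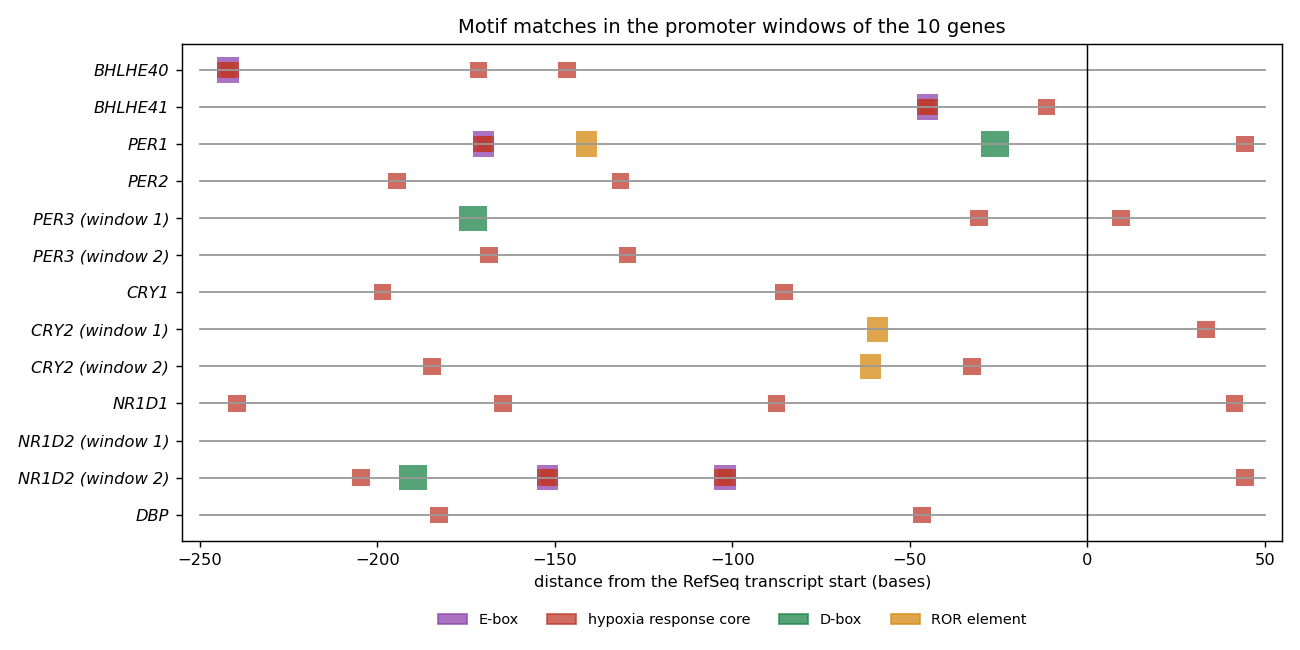
Motif matches in the 13 RefSeq promoter windows of the 10 genes, one window per line, with distance from the transcript start in bases on the horizontal axis. Boxes mark the E-box, the hypoxia response core, the D-box and the ROR element, and 12 of the 13 windows hold at least 1 hypoxia response core.

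Expression was given as FPKM, which divides the fragments of a gene by its transcript length and by the size of the library, so levels can be set side by side between genes. Relative depth, with replicate 1 of control hypoxia as 100%, was between 55.7% and 96.1% in the other 7 libraries, and the absolute depth is unknown. LOXHD1, the targeted gene, was at 156 and 169 FPKM in control normoxia, 93.0 and 91.1 in control hypoxia, 17.3 and 15.0 in eKD1 and 11.7 and 11.8 in eKD2. CA9, a hypoxia-inducible carbonic anhydrase, was between 56.9 and 82.8 FPKM in the 6 hypoxia libraries and listed at 0 in normoxia, and VEGFA rose by 2.02 on the log2 scale in control hypoxia (limma adjusted p = 0.00653). The 8 Ewing sarcoma markers were all expressed, with a summed level of 1211 to 1520 FPKM. CCND1 (566 to 860) and CD99 (305 to 417) were the highest, and single markers differed between groups. In control hypoxia against normoxia 6 of the 8 were called lower and 1 higher, beside 16.0% and 16.2% of all genes tested. In eKD2 against control hypoxia 3 were called higher and 1 lower, beside 9.61% of all genes called. In eKD1 against control hypoxia none was called, beside 0.0651%. Of the 5 markers of other cell types, 4 were in the table and none was near 0 in any library: their summed level was 236 and 240 FPKM in control normoxia, 270 and 291 in control hypoxia, 263 and 269 in eKD1 and 251 and 261 in eKD2. PTPRC, a leukocyte gene, was at 22.5 and 23.8 FPKM in normoxia, 4.87 and 5.39 in control hypoxia, 9.59 and 10.0 in eKD1 and 13.5 and 14.3 in eKD2. The fibroblast gene COL1A2 went the other way with oxygen, at 76.2 and 69.7 FPKM in normoxia and 121 and 129 in control hypoxia. In eKD1 COL1A2 was at 110 and 101 FPKM, and in eKD2 at 102 and 102. DCN, also a fibroblast gene, and EPCAM, an epithelial gene, overlapped between control hypoxia and normoxia. The part of PTPRC, COL1A2, DCN and EPCAM in the results below was not tested. In bulk RNA, fewer cells of a type and less RNA per cell cannot be told apart.

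The 10 genes differed widely in level. In control normoxia DBP was the highest at 29.3 ± 2.10 FPKM (SD, n = 2), and its libraries did not overlap those of the next gene. CRY1 (14.3 ± 1.89), CRY2 (12.6 ± 0.736) and PER1 (11.8 ± 0.617) followed, and neighbours among these 3 overlapped. PER3 (6.46 ± 0.0763), PER2 (4.41 ± 0.126), NR1D2 (3.02 ± 0.118) and NR1D1 (2.20 ± 0.344) came below them in that order, each apart from its neighbours. BHLHE40 and BHLHE41 were at or next to 0. In control hypoxia the order changed at both ends. CRY2 stood level with DBP, at 28.6 ± 2.18 against 26.7 ± 1.12 FPKM with overlapping libraries. BHLHE40 (2.42 ± 0.467) had a mean between those of NR1D2 and NR1D1, overlapping NR1D2 and apart from NR1D1. PER3 (3.13 ± 0.867) overlapped both PER2 and NR1D2. In eKD1 and eKD2 hypoxia the upper positions were held by DBP, CRY1, CRY2 and PER1, and neighbours in rank among these 4 overlapped. BHLHE41 was the lowest of the 10 in every group.

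**Figure D2:**
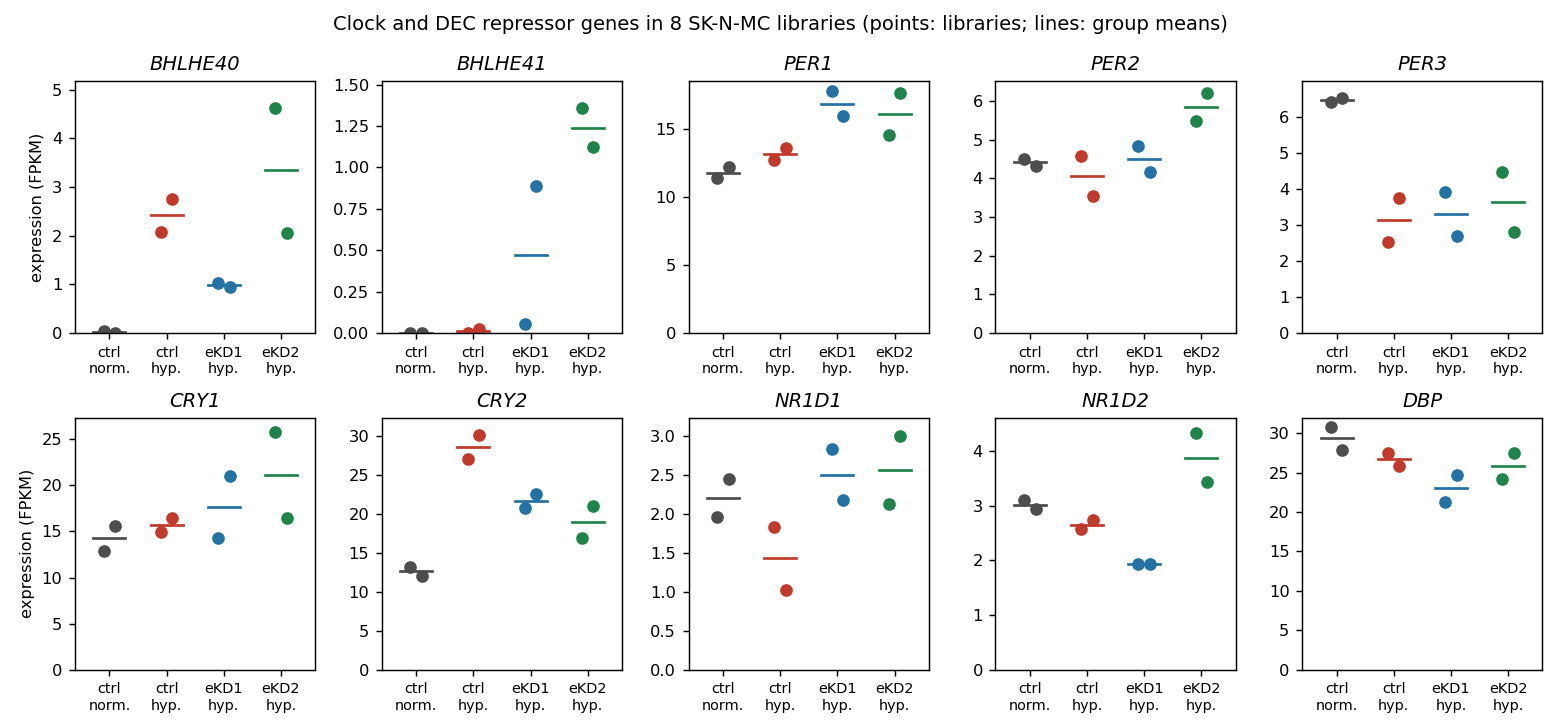
Expression of the 10 genes in FPKM on linear axes from 0, by group. Points are single libraries and lines are the means of the 2 libraries of a group. BHLHE40 and CRY2 stood higher and PER3 lower in control hypoxia than in control normoxia, BHLHE41 was highest in eKD2, and NR1D2 was lowest in eKD1 and highest in eKD2.

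Hypoxia against normoxia in control cells asks how these genes stood after 16 h of low oxygen. Of the 10 genes, BHLHE40 and CRY2 rose, PER3 fell, and 7 did not pass the test. Among the 15372 genes tested, 32.2% were called in this comparison, 16.2% higher and 16.0% lower, so 3 of 10 is close to the share over all genes. The median change of the 10 was -0.04 on the log2 scale, against 0.01 over all genes tested. Groups of 2 libraries did not overlap for 7 of the 10 genes, 3 higher and 4 lower, and for 70.4% of all genes tested. Neither the count nor the median of the 10 set them apart from all genes, and the differences lay in single members.

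BHLHE40 was at 0.0327 FPKM in one normoxia library and listed at 0 in the other, and was at 2.09 and 2.75 FPKM in control hypoxia. Both hypoxia libraries were above both normoxia libraries. The difference was 1.74 (SE 0.19) in log2(FPKM + 1), with a limma adjusted p of 0.0113. No fold is given because one group was at 0 or close to it, and the size depends on the pseudocount, since it was 4.44 with a pseudocount of 0.1. BHLHE40 reached 1 FPKM, the level needed for testing, in hypoxia libraries alone, those of control hypoxia and of the eKD groups. A gene that passed in this way had to be higher in some hypoxia libraries than in both normoxia libraries, and its call carries that limit. BHLHE40-AS1, which lies on the opposite strand and overlaps 12.8% of its exon bases, was listed at 0 in all 8 libraries. BHLHE41 was at 0.0233 FPKM in one library of control hypoxia and listed at 0 in the other and in normoxia.

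CRY2, a cryptochrome that represses CLOCK and BMAL1, was at 13.1 and 12.1 FPKM in normoxia and 27.1 and 30.2 FPKM in control hypoxia. Its mean in hypoxia was 227% of that in normoxia, a log2 difference of 1.12 (SE 0.11, limma adjusted p = 0.00976). CRY1, its partner in the same role, was at 12.9 and 15.6 FPKM in normoxia and 14.9 and 16.5 in control hypoxia, and its groups overlapped (0.13, adjusted p = 0.496 in limma). The summed level of both cryptochromes went from 26.1 and 27.7 FPKM to 42.0 and 46.7 FPKM. CRY2 made up 50.4% and 43.7% of that sum in normoxia and 64.5% and 64.6% in control hypoxia. This share and the PER share that follows were computed after the values had been seen, and carry no test.

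PER3 moved the other way. It was at 6.41 and 6.51 FPKM in normoxia and 2.51 and 3.74 FPKM in control hypoxia, so its mean in hypoxia was 48.4% of that in normoxia. The log2 difference was -0.87 (SE 0.20, limma adjusted p = 0.0460), close to the threshold of 0.05, and the call was lost with a pseudocount of 0.1 (adjusted p = 0.0548) and with no filter on low values (adjusted p = 0.131). UTS2, on the opposite strand, overlaps 10.7% of the exon bases of PER3 and was between 0 and 4.08 FPKM. The kit did not keep the strand, so reads in the shared bases cannot be told apart. PER1 was at 11.4 and 12.3 FPKM in normoxia and 12.8 and 13.6 in control hypoxia, and PER2 at 4.50 and 4.32 against 4.56 and 3.54. Neither passed the test (0.15, adjusted p = 0.354, and -0.11, adjusted p = 0.663, both limma), and PER1 was lower by 0.08 when all libraries were set to the same FPKM total. PER3 made up 28.7% and 28.2% of the summed PER level in normoxia and 12.7% and 17.9% in control hypoxia.

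The remaining repressors and DBP were lower in both control hypoxia libraries than in both normoxia libraries without passing the test. NR1D1 was at 1.96 and 2.45 FPKM in normoxia and 1.84 and 1.02 in control hypoxia (-0.41, adjusted p = 0.266). NR1D2 was at 3.11 and 2.94 against 2.57 and 2.74 FPKM (-0.14, adjusted p = 0.508). DBP was at 30.8 and 27.9 against 27.5 and 25.9 FPKM (-0.13, 95% interval -0.39 to 0.13, adjusted p = 0.348). These 3 p-values are from limma, and their intervals include both a decrease and a small increase. NR1D1 shares 18.0% of its exon bases with THRA on the opposite strand, a gene at 30.4 to 39.9 FPKM and so well above NR1D1. SPHK2 shares 10.2% of those of DBP and was at 19.6 and 23.3 FPKM in normoxia and 4.28 and 3.03 in control hypoxia.

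With any 1 of the 4 libraries left out, none of the 15372 genes passed the threshold, between 4934 and 6167 genes had an unadjusted p under 0.05, and so no call of this comparison could be kept. The changes themselves were 1.60 to 1.88 for BHLHE40, 1.05 to 1.20 for CRY2 and -1.09 to -0.65 for PER3 in these fits.

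**Figure D3:**
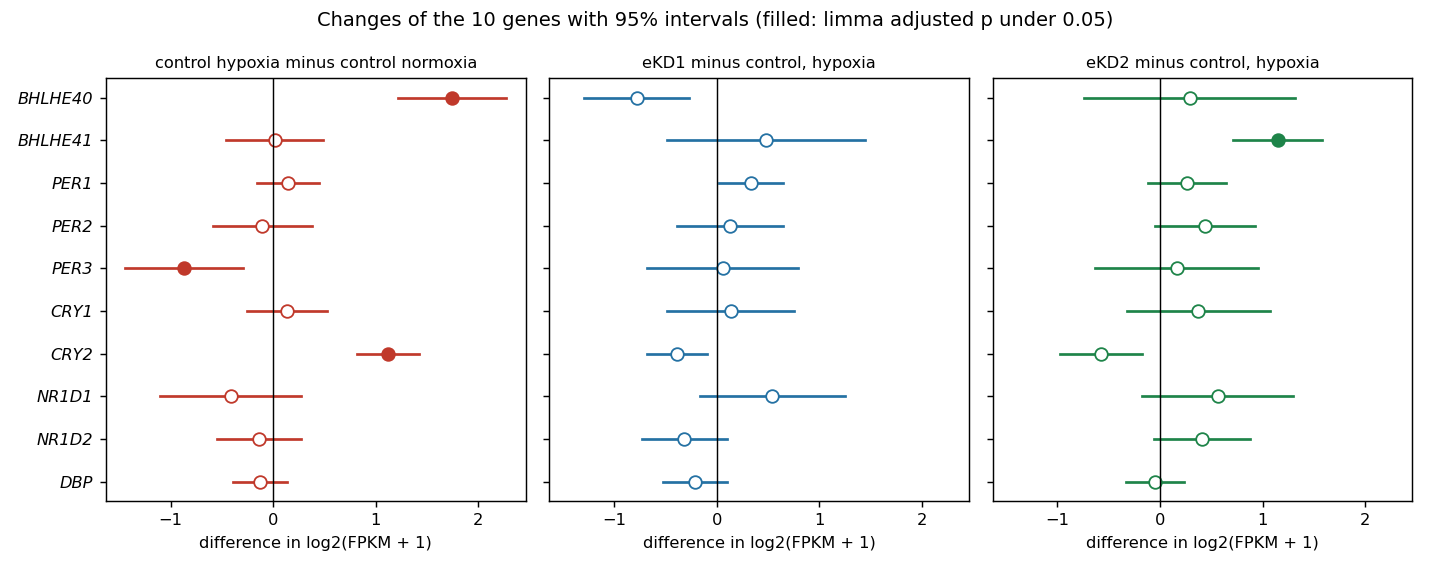
Difference in log2(FPKM + 1) of the 10 genes in 3 comparisons, with 95% confidence intervals from limma. Filled circles passed an adjusted p of 0.05: BHLHE40, CRY2 and PER3 in control hypoxia against control normoxia, and BHLHE41 in eKD2 against control hypoxia. No gene passed in eKD1 against control hypoxia.

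The eKD groups against control hypoxia ask whether repression of the LOXHD1 enhancer went with other levels of these genes at the same oxygen. Both comparisons use the same 2 control hypoxia libraries, so they are not independent, and values are given side by side. In eKD1 no member was called, against 0.0651% of all genes tested. At an unadjusted p under 0.05 there were 3 of 10 (BHLHE40, CRY2 and PER1) and 3337 of all genes. The libraries did not overlap for 7 members, 3 higher and 4 lower, and for 53.6% of all genes, and the median change was 0.09 against 0.00. In eKD2 BHLHE41 alone was called, a share of 1 in 10 against 9.61% of all genes in either direction and 5.8% higher. BHLHE41 passed the filter of 1 FPKM through the eKD2 libraries alone and so had to differ, and none of the other members was called. Libraries did not overlap for 6 members, 5 higher and 1 lower, and for 62.1% of all genes, and the median change was 0.33 against 0.05.

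In eKD1 BHLHE40 was at 1.02 and 0.937 FPKM and in eKD2 at 4.62 and 2.07, beside 2.09 and 2.75 in control hypoxia. Both eKD1 libraries were below both controls, while the eKD2 libraries lay on either side of them. The eKD1 mean was 40.5% of control hypoxia, a log2 difference of -0.78 (SE 0.18, limma adjusted p = 0.149). In eKD2 the difference was 0.29 (SE 0.36, adjusted p = 0.622) and turned to -0.15 without replicate 1. Neither difference passed the test.

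BHLHE41 rose in eKD2. It was at 1.36 and 1.12 FPKM there, at 0.0541 and 0.890 in eKD1, and at 0 and 0.0233 in control hypoxia. The eKD2 libraries were above all others, and the eKD1 libraries lay far apart, one next to the controls and the other next to eKD2. The difference of eKD2 from control hypoxia was 1.14 (SE 0.15, limma adjusted p = 0.0372), and that of eKD1 was 0.48 (SE 0.34, adjusted p = 0.482). The size depends on the pseudocount, with 3.59 at 0.1. The call was lost in the fit shared by all 8 libraries (adjusted p = 0.0561) and without a variance trend (adjusted p = 0.0543). Over all 15372 genes, this comparison had 1477 calls as fitted for the report, 2601 in the shared fit and 28 without a variance trend. SSPN, which overlaps 4.20% of its exon bases on the opposite strand, was at 0.766 and 0.910 FPKM in eKD2, 0.0381 and 0.257 in eKD1 and at most 0.0945 in control cells. The part of this neighbour in the BHLHE41 value was not tested.

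CRY2 was lower in both eKD groups than in control hypoxia, at 20.7 and 22.6 FPKM in eKD1 and 16.9 and 20.9 in eKD2 beside 27.1 and 30.2. All 4 eKD libraries were below both hypoxia controls and above both normoxia controls. The eKD1 mean was 75.6% of control hypoxia (-0.39, SE 0.10, limma adjusted p = 0.168) and the eKD2 mean 66.2% (-0.58, SE 0.14, adjusted p = 0.0846), and neither passed the test. In eKD2 it was called in the fit shared by all 8 libraries (adjusted p = 0.0303) and among protein-coding genes alone (adjusted p = 0.0459). CRY1 was at 14.2 and 21.1 FPKM in eKD1 and 25.8 and 16.4 in eKD2, with overlap and a wide spread in both. CRY2 made up 59.3% and 51.7% of the cryptochrome sum in eKD1 and 39.6% and 56.0% in eKD2.

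Among the period genes, PER1 and PER2 stood above control hypoxia in eKD2 without passing the test. PER1 was at 17.8 and 16.0 FPKM in eKD1 (0.33, adjusted p = 0.212) and 14.6 and 17.7 in eKD2 (0.26, adjusted p = 0.262), above both controls in each case. In eKD1 PER2 was at 4.85 and 4.17 FPKM (0.13, adjusted p = 0.718), overlapping its controls, and in eKD2 it was at 5.47 and 6.20 (0.44, adjusted p = 0.177), above them. PER3 overlapped its hypoxia controls in both eKD groups, at 3.92 and 2.68 FPKM in eKD1 and 4.47 and 2.81 in eKD2 (0.06, adjusted p = 0.921, and 0.16, adjusted p = 0.730). All these p-values are from limma, and every PER3 library in hypoxia, with or without a guide, was below both normoxia libraries.

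Neither REV-ERB gene passed the test in either eKD group. NR1D1 was above both control hypoxia libraries in all 4 eKD libraries, at 2.83 and 2.18 FPKM in eKD1 and 2.12 and 3.0 in eKD2 (0.54 and 0.56, adjusted p = 0.311 and 0.232). NR1D2 was at 1.94 and 1.94 FPKM in eKD1, below both controls (-0.32, adjusted p = 0.313), and at 4.33 and 3.43 in eKD2, above both (0.41, adjusted p = 0.186). NR1D2 was the one member to stand apart from control hypoxia in opposite directions in eKD1 and eKD2, as did 7.5% of all genes tested. DBP, the D-box activator, was at 21.3 and 24.8 FPKM in eKD1 (-0.21, adjusted p = 0.365) and 24.2 and 27.5 in eKD2 (-0.05, adjusted p = 0.782). None of these values, all from limma, passed the threshold.

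Set directly against each other, eKD2 and eKD1 gave no called member, beside 0.403% of all genes tested. At an unadjusted p under 0.05 there were 2 of 10 members, BHLHE40 (1.07, SE 0.35, limma adjusted p = 0.200) and NR1D2 (0.73, SE 0.17, adjusted p = 0.134), and 3623 of all genes. Libraries did not overlap for 4 members, all higher in eKD2 (BHLHE40, BHLHE41, PER2 and NR1D2), and for 55.2% of all genes. NR1D2 passed in the fit shared by all 8 libraries, with an adjusted p of 0.0441. With any 1 library left out, no gene of the table was called in any of the 3 comparisons among hypoxia groups, with between 1808 and 4016 genes at an unadjusted p under 0.05.

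Each eKD group in hypoxia was also compared with control cells in normoxia, which mixes oxygen and guide. In eKD1 BHLHE40 (0.96, adjusted p = 0.0437) and CRY2 (0.74, adjusted p = 0.0415) were higher, 2 of 10 against 10.8% of all genes called and 6.06% called higher. In eKD2 BHLHE40 (2.03, adjusted p = 0.0382) and BHLHE41 (1.16, adjusted p = 0.0293) were higher, 2 of 10 against 19.3% called and 11.5% called higher. BHLHE40 and BHLHE41 passed the filter through the groups where they were high, so these counts carry that limit. CRY2 was at 0.54 in eKD2 and missed the threshold (adjusted p = 0.0819). PER3 differed by -0.81 in eKD1 and -0.71 in eKD2, and neither passed (adjusted p = 0.0916 and 0.117, all from limma).

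Other parts of the clock were counted from a list of 24 genes, of which 21 could be tested. In control hypoxia against normoxia 4 rose, 3 fell and 14 did not pass, so 7 of 21 were called beside 32.2% of all genes tested, a share close to the background. The rises were NFIL3, a D-box repressor that opposes DBP (2.51 and 3.03 against 8.53 and 9.15 FPKM, a log2 difference of 1.39, adjusted p = 0.0114), RORA, the receptor that activates ARNTL (0.91, adjusted p = 0.0276), and the outputs KLF10 (1.20, adjusted p = 0.0121) and KLF9 (1.00, adjusted p = 0.0243). KLF9 passed the filter through hypoxia libraries alone. Of the 8 listed kinases and ubiquitin enzymes that act on PER and CRY proteins, 3 fell and 5 did not pass. Over all genes tested, 16.0% were called lower. Those that fell were the kinase GSK3B (-0.995, adjusted p = 0.0212), the ubiquitin ligase subunit BTRC (-0.75, adjusted p = 0.0337) and the deubiquitinase USP2 (-1.11, adjusted p = 0.0236). All are limma values. None of the 3 tested genes of the positive limb (CLOCK, ARNTL and ARNTL2) passed in any comparison, and NPAS2 and RORB were below the filter.

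NFIL3 had 7.64 and 7.86 FPKM in eKD1 and 17.1 and 16.8 in eKD2. It was the 1 gene of the 21 called in eKD2 against control hypoxia (0.87, SE 0.10, limma adjusted p = 0.0330), where 9.61% of all genes were called. None of the 21 was called in eKD1 against control hypoxia, beside 0.0651% of all genes. GSK3B, at 15.1 and 19.96 FPKM in control hypoxia, was at 33.7 and 39.6 in eKD2, next to its normoxia values of 35.5 and 35.8, and missed the threshold (1.03, adjusted p = 0.0511), which it passed in 5 of 9 other fits (adjusted p from 0.0077 to 0.129). In eKD2 the call on NFIL3 was lost without a variance trend (adjusted p = 0.0555), where 28 of all 15372 genes were called. The shared fit called 4 of the 21, and 2601 of all genes. Against normoxia, eKD1 gave 2 higher and 1 lower of the 21, beside 10.8% of all genes called. The eKD2 libraries gave 6 higher and none lower against normoxia, beside 19.3% called and 11.5% called higher. In eKD2 against eKD1 none of the 21 was called, beside 0.403% of all genes tested. Of the HIF partners in the same protein family as CLOCK, HIF1A was at 104 and 116 FPKM in normoxia and 33.3 and 39.0 in control hypoxia (-1.58, adjusted p = 0.00809), ARNT was at 14.0 and 16.1 against 27.7 and 28.6 (0.86, adjusted p = 0.0143), and EPAS1 and ARNT2 were below the filter.

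**Figure D4:**
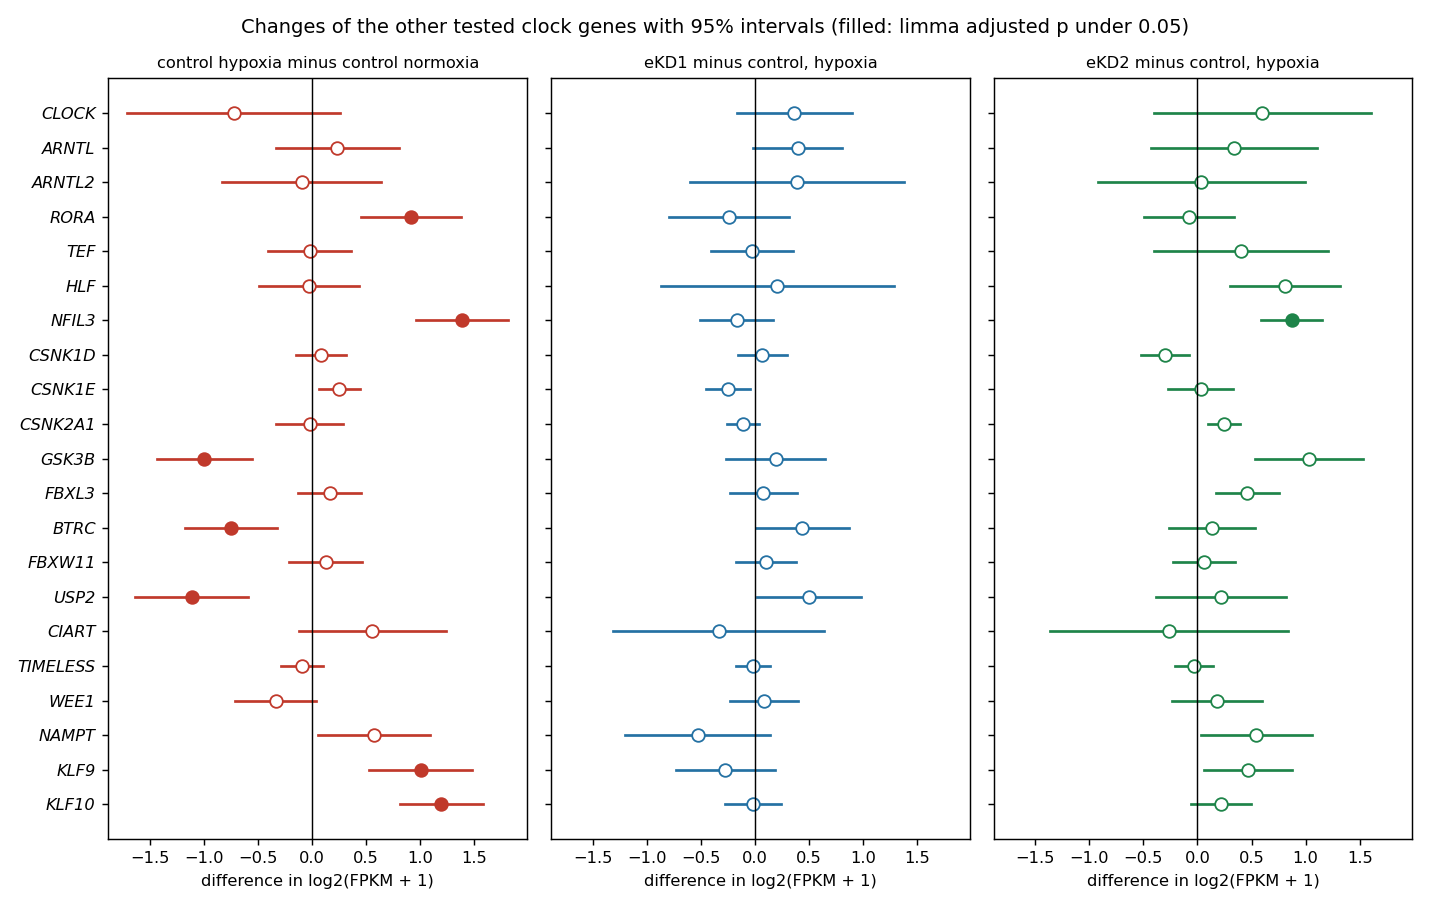
Difference in log2(FPKM + 1) of the 21 other tested clock genes in 3 comparisons, with 95% confidence intervals from limma. Filled circles passed an adjusted p of 0.05: 7 genes in control hypoxia against control normoxia, none in eKD1 and NFIL3 in eKD2 against control hypoxia.

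The genes most like each member were sought among 9790 protein-coding genes with a mean of at least 5 FPKM, by Pearson correlation of log2(FPKM + 1) over the 8 libraries. The 8 points are 4 groups of 2, so a high r mainly reflects the group pattern, and no test is attached. CRY2 was nearest to COX6A1 (r = 0.993), a subunit of cytochrome c oxidase, and to BLOC1S1 (r = 0.990). COX6A1 was at 232 and 225 FPKM in normoxia, 331 and 329 in control hypoxia and 265 to 295 in the eKD libraries, the same intermediate position as CRY2. BHLHE40 was nearest to SDHAF4 (r = 0.977), an assembly factor of succinate dehydrogenase, PER3 to NIN (r = 0.987), PER1 to UBE2E2 (r = 0.993) and NR1D2 to EIF2B3 (r = 0.982). CRY1 had the lowest best match, PTK2 at r = 0.917.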

How the data were processed

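The authors sequenced poly-A selected, unstranded, single-end libraries, aligned reads to GRCh37 with STAR and quantified genes through cufflinks and cuffnorm. They deposited FPKM values as 1 table of 60332 genes and 8 libraries. How cuffnorm scaled the libraries is not given in the sources used here. Cufflinks shares reads between overlapping genes.

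Groups and replicate numbers came from the sample titles. The study's methods call the replicates of a group biological duplicates. The labels do not say whether they came from separate cultures, and p-values measure the spread between these libraries. Replicates correlated at r = 0.954 to 0.963 over genes. Relative depth was read from the steps between low FPKM values. No counts were available, so no counting interval or floor was computed.

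Tests were made on log2(FPKM + 1), a scale that understates changes at low levels. A gene entered with 1 FPKM or more in 2 or more libraries, which gave 15372 genes, and these were fitted with limma 3.58.1 in R 4.3.3, each comparison of 2 against 2 libraries on its own, with a variance trend, two-sided p-values and Benjamini-Hochberg adjustment over all genes tested. Calls needed an adjusted p below 0.05, and every adjusted p is from limma. The study itself tested read counts with a count model, which FPKM values cannot enter. The procedure was tested on simulated data. Exon overlaps used GENCODE version 44 on GRCh37. Other settings tried were protein-coding genes alone, equal FPKM totals, rescaling by the median of ratios, a mean of 5 FPKM as the filter or none at all, a pseudocount of 0.1, no variance trend, a fit shared by all 8 libraries, the same fit with the replicate number as a block, and each library left out.

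The members, gene lists and tests were chosen with earlier results of these data known. All members were named, and other listed genes were named where called in at least 1 comparison or below the filter, except 1 gene that is not reported here.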

Additional observations from a re-analysis of the deposited data

Results flagged for a closer look

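For 5 of the 31 clock genes tested, both eKD1 libraries lay below both control hypoxia libraries and both eKD2 libraries above them. This describes where the libraries lay, and whether the guides caused it was not tested. Among all genes tested, 7.5% lay apart from control hypoxia in opposite directions in the 2 eKD groups, in either order. The genes were picked for this pattern, so a higher level in eKD2 than in eKD1 was fixed by the choice. Differences between eKD2 and eKD1 in hypoxia on log2(FPKM + 1), with limma p-values adjusted over all genes tested, are given as a description. Among the 10 members this held for NR1D2 alone, with a difference of 0.73 (adjusted p = 0.134, called in 1 of 8 other fits). Among the other 21 clock genes it held for NAMPT, an enzyme of NAD synthesis (1.07, adjusted p = 0.0922, called in 3 of 9), NFIL3 (1.04, adjusted p = 0.0705, called in 4 of 9), KLF9 (0.74, adjusted p = 0.121, called in none of 8) and CSNK2A1, a catalytic subunit of casein kinase 2 (0.36, adjusted p = 0.0874, called in none of 9). CSNK2A1 was called in no comparison and is named here after its values were seen. In eKD2 against eKD1 none of the 5 passed the threshold as fitted for the report. The 2 comparisons with control hypoxia share the same control libraries.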

How the results depend on the processing

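With all libraries kept, the log2 changes of the 10 members were recomputed 504 times, and 476 kept both their direction and their side of the threshold. The number of members called was 3 in control hypoxia against normoxia, 0 in eKD1 and 1 in eKD2 against control hypoxia, 0 in eKD2 against eKD1, and 2 in each eKD group against normoxia. As fitted for the report, the calls over all 15372 genes were 4946, 10, 1477, 62, 1662 and 2973 in the same order. A filter at a mean of 5 FPKM, which leaves out low genes, gave 1 in control hypoxia, 0 in eKD2 against control hypoxia, 1 in eKD1 against normoxia and 0 in eKD2 against normoxia. Over all genes, that filter gave 4263, 1780, 1852 and 2749 calls of 10808 in the same order. No filter gave 0 in eKD1 and 1 in eKD2 against normoxia, where 7 and 1261 of all 27155 genes were called. Calls were also gained against normoxia: CRY2 in eKD2 with the shared fit (adjusted p = 0.0232), with the replicate block (0.0295) and with protein-coding genes alone (0.0471), and in eKD1 PER1 with the shared fit (0.0370) and PER3 with protein-coding genes alone (0.0475). The count of members was then 3 in eKD2 with the shared fit, and 3 in both eKD groups with protein-coding genes alone. Over all genes, the shared fit gave 4551 calls of 15372 in eKD2 against normoxia. Protein-coding genes alone gave 2691 of 12248 in eKD1 and 3789 of 12248 in eKD2 against normoxia. No variance trend gave 0 in eKD2 against control hypoxia and 1 in eKD1 against normoxia, where 28 and 298 of all 15372 genes were called. Protein-coding genes alone gave 2 in eKD2 against control hypoxia, where 2462 of 12248 were called. Equal FPKM totals gave 1 in eKD1 against normoxia, and the shared fit gave 1 in eKD2 against eKD1. Over all 15372 genes, these fits gave 2269 and 1391 calls. Beyond the filters, the cause of these changes in the member counts was not tested.

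Equal FPKM totals moved the median of all genes in control hypoxia against normoxia to -0.19 on the log2 scale, from 0.01, and the genes called higher to 1566 of 5510, from 2486 of 4946. CRY2, BHLHE40 and PER3 kept their direction and their calls. Signs turned under that scaling for PER1 (-0.076) and CRY1 (-0.092) in control hypoxia, PER2 in eKD1 against normoxia (-0.12) and DBP in eKD2 against control hypoxia (0.056), and under median-of-ratios rescaling for NR1D1 in eKD2 against eKD1 (-0.016). None of these was called.

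The replicate numbers did not pair the libraries, with correlations of the replicate differences between groups of -0.06 to 0.13. With the replicate block, 1 member was called in eKD1 against normoxia and 2 in control hypoxia, where PER3 was lost. Over all 15372 genes, the block gave 3272 and 5414 calls in these comparisons. BHLHE41 was not called in eKD2 against control hypoxia with the block (adjusted p = 0.0792), while CRY2 was (adjusted p = 0.0404).

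Leaving out 1 library left 0 members called in every comparison, as for all genes. A single library then stands for its group and is assumed to vary like the others. Uncalled changes whose sign turned with the library left out ranged as follows. In control hypoxia PER2 ranged from -0.25 to 0.040. In eKD1 against control hypoxia PER2 ranged from -0.018 to 0.28, PER3 from -0.16 to 0.28 and CRY1 from -0.13 to 0.40. In eKD2 against control hypoxia BHLHE40 ranged from -0.15 to 0.73, PER3 from -0.10 to 0.42 and DBP from -0.13 to 0.040. In eKD2 against eKD1 the ranges were -0.20 to 0.062 for PER1, -0.16 to 0.36 for PER3, -0.073 to 0.55 for CRY1 and -0.16 to 0.20 for NR1D1. Against normoxia they were -0.066 to 0.11 for PER2 and -0.0080 to 0.26 for NR1D1 in eKD1, and -0.032 to 0.32 for NR1D1 in eKD2.

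Duplicates without counts limit what can be called, most of all for BHLHE40 and BHLHE41, which are at or near 0 in some groups.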
